A study of Homo sapiens with 10 samples.

Results

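The comparison described here is the difference between 2 decoy responses: how transcript levels changed with a decoy against miR-17 in SK-Hep1 cells, minus how they changed in HepG2 cells. It uses the gene counts of all 10 libraries of the series, and 13349 of the 19215 genes in the deposited counts had enough counts to be tested. Poly(A) RNA was sequenced from HepG2 and SK-Hep1, both labelled as hepatocellular carcinoma lines. Lentivirus (multiplicity of infection 5) was put on each line for 48 h together with 10 µg/mL polybrene, and 1 µg/mL puromycin then selected the infected cells. After 2 weeks resistant colonies were pooled, so each arm of each line is 1 stable line. The virus encoded either a tough decoy against miR-17 (miR-17 TuD) or a negative control decoy (NC TuD), and all cells grew in medium with 10% serum. HepG2 had 3 libraries with NC TuD and 3 with miR-17 TuD, and SK-Hep1 had 2 with each. The labels do not say whether libraries of an arm came from separate cultures, so the p-values measure the spread between these libraries only. What the decoy did and what happened while each stable line was made cannot be told apart, in a response or in the difference of responses. The gene counts do not measure mature microRNAs, so how far the decoy blocked them in each line is not known.

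A tough decoy is a hairpin transcript with exposed binding sites that capture a mature microRNA and keep it from its targets. MicroRNAs of the miR-17 family share 1 seed, the stretch near the 5′ end that pairs with matching sites in the 3′ untranslated regions (3′UTRs) of messenger RNAs and lowers their level or translation. The family is made from several clusters that MYC can switch on, is abundant in many tumours, liver tumours included, and is known for restraining TGF-beta receptors, cell cycle inhibitors and pro-apoptotic genes. The 6 mature family members below, from RefSeq (GRCh38.p14), are shown because they share the seed of miR-17. Which of them the decoy captured was not measured. Capitals mark the seed, nucleotides 2 to 8, which is AAAGUGC in each.
hsa-miR-17-5p: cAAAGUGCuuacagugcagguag
hsa-miR-20a-5p: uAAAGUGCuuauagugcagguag
hsa-miR-20b-5p: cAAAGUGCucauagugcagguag
hsa-miR-93-5p: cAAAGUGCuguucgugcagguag
hsa-miR-106a-5p: aAAAGUGCuuacagugcagguag
hsa-miR-106b-5p: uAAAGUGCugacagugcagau

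Matches to this seed in 3′UTRs were searched as an 8mer (GCACTTTA), a 7mer-m8 (GCACTTT) or a 7mer-A1 (CACTTTA), on the strand of the transcript only, in the longest 3′UTR of each gene (GENCODE 29, GRCh38). The 8mer holds both shorter motifs and was counted once, as an 8mer. Of 13240 tested genes with such a 3′UTR, 25% held an 8mer or 7mer-m8 and 5.32% an 8mer. A match describes the sequence and is not evidence of binding. The first 4 sequences below belong to genes that rose in both lines without a called difference, and the other 4 to genes whose response was smaller in SK-Hep1. Capitals mark the match.
TGFBR2: agccaataacatttGCACTTTAtt
MINK1: ttcattttctgaaaGCACTTTAat
SEMA7A: cacctcttctcaatGCACTTTAat
BTG3: cttaaaaaatatatGCACTTTAga
ZNFX1, 8mer nearer the stop codon: ctgcgctagagtaaGCACTTTAtc
ZNFX1, 8mer nearer the 3′ end: tttgtctttactatGCACTTTAgc
FYCO1, its 8mer: caacatttggaattGCACTTTAat
BMPR2, its 7mer-m8 nearest the stop codon: gttttttaagttttGCACTTTtg
On GRCh38 the matches lie at chr3:30691867-30691874 on the plus strand (TGFBR2), chr17:4897781-4897788 on the plus strand (MINK1), chr15:74409328-74409335 on the minus strand (SEMA7A) and chr21:17593919-17593926 on the minus strand (BTG3). Those of the other genes lie at chr20:49246776-49246783 on the minus strand and chr20:49245936-49245943 on the minus strand (ZNFX1), chr3:45918139-45918146 on the minus strand (FYCO1) and chr2:202560152-202560158 on the plus strand (BMPR2). All lie in 3′UTRs, while the counts themselves were made on hg19 per the labels.

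Libraries held 12884225 to 15076431 gene counts, and values below are counts per 1000000 (CPM, scaled by TMM), where 3 counts are 0.197 to 0.239 CPM. The lines differ widely in type. The 30 hepatocyte plasma protein genes summed to 58897 to 68468 CPM in HepG2 and to 108 to 137 CPM in SK-Hep1, where albumin and alpha-fetoprotein were near 0. The hepatocyte markers that the label would call for were thus nearly absent from SK-Hep1. CDH1, the epithelial adhesion gene, had 1 count in all 4 SK-Hep1 libraries together. The list of 26 epithelial genes that holds it summed to 4510 to 5245 CPM in HepG2 and 5384 to 5617 CPM in SK-Hep1. Most of the SK-Hep1 sum was the keratin genes KRT8 and KRT18. They had means of 1601 and 879 CPM in HepG2 and 2639 and 2054 CPM in SK-Hep1. The other members of the list together were lower in SK-Hep1 than in HepG2. Of 18 endothelial marker genes, 10 to 12 had a count in each library. They summed to 65.5 to 82.7 CPM in HepG2 and 109 to 123 CPM in SK-Hep1. Most of the SK-Hep1 sum was ENG alone, with a mean of 68.4 CPM there and 4.44 CPM in HepG2, while PECAM1 had no count in SK-Hep1. Genes that 1 line hardly expresses can show a large difference from few counts, so results are led by the 9156 genes with a mean of at least 5 CPM in each line.

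The decoy responses of the 2 lines differed for a small share of genes, and for most of these HepG2 alone passed its own test. By edgeR's quasi-likelihood test with Benjamini-Hochberg adjustment over all genes, 500 of 13349 genes (3.75%) had a response that differed between the lines. For 165 genes (1.24%) the response was higher in SK-Hep1 than in HepG2, and for 335 (2.51%) it was lower. Without adjustment, 2035 genes had p below 0.05. The median size of the called differences was 0.38 on the log2 scale, and 68 of the 500 reached 2-fold. HepG2 itself had 2571 calls (19.3% of genes, 10.7% higher and 8.58% lower) and SK-Hep1 116 (0.869%, 0.667% higher and 0.202% lower). Among the 500 called differences, HepG2 alone passed its own test for 424, SK-Hep1 alone for 15, both for 25 and neither for 36. The tests of the 2 lines used 1 estimate of the spread, shared by all 4 groups. The difference contains both responses, so these counts describe the calls and are not further tests. Where both passed, 14 genes moved the same way by different amounts and 11 moved in opposite directions. Another 44 genes were called in both lines, in the same direction, without a called difference.

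Among the 9156 genes of at least 5 CPM in each line, 420 (4.59%) differed, 155 higher (1.69%) and 265 lower (2.89%) in SK-Hep1, and 10 of these reached 2-fold. No such gene was called with a difference below 0.16, against a median standard error (SE) of 0.10. The responses themselves spread more in HepG2 (SD 0.157 over genes, log2) than in SK-Hep1 (SD 0.105). Their correlation over these genes was weak (Pearson r = 0.20, Spearman rho = 0.17, across genes of the same libraries, which are not replicates). Of 1924 HepG2 calls among them, 65.0% had the same sign in SK-Hep1. Of 78 SK-Hep1 calls, 78.2% had the same sign in HepG2. Over all genes tested, the number of called differences (500 with all libraries) rested on single libraries. It was 310 without HepG2 NC TuD replicate 1, and 329 and 289 without SK-Hep1 NC TuD replicate 1 or 2. It was 312 and 266 without SK-Hep1 miR-17 TuD replicate 1 or 2, and ran from 355 to 613 without each other library. HepG2 was also limited to 2 libraries per arm like SK-Hep1, in each of 9 choices. Over all genes tested, HepG2 then had 1278 to 2834 calls and SK-Hep1 81 to 241.

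**Figure D1:**
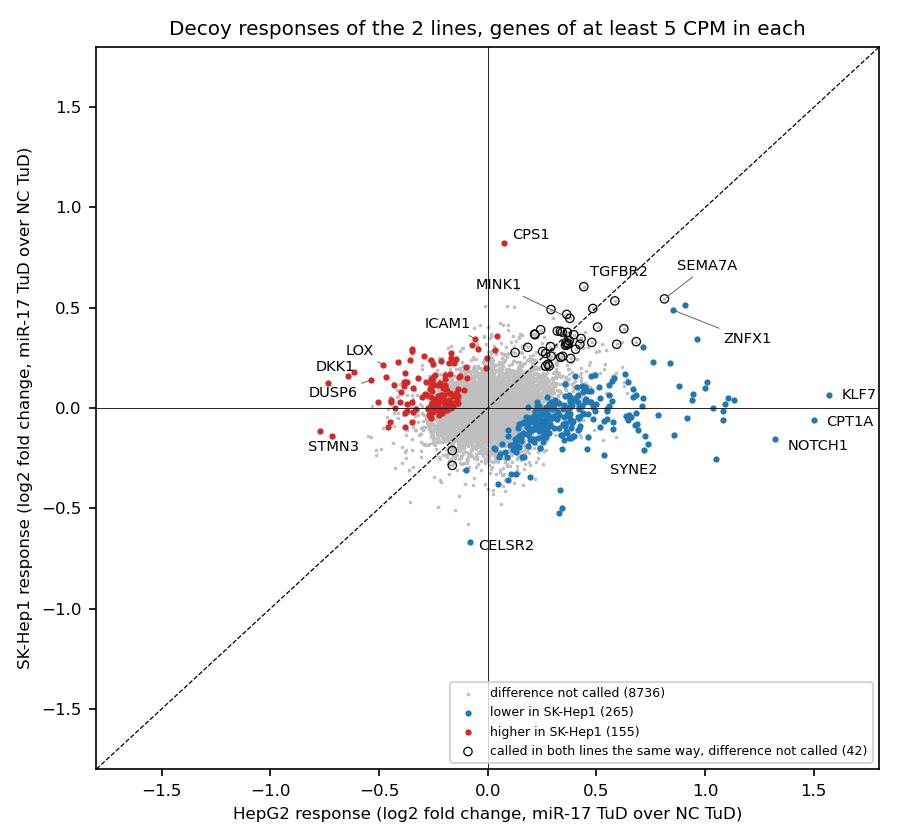
Response to the miR-17 decoy (log2 fold change over the control decoy) in HepG2 on the x axis and in SK-Hep1 on the y axis for the 9156 genes of at least 5 CPM in each line, with equal responses on the dashed line. Blue and red points, the 265 and 155 genes whose responses differed, lie mostly along the x axis. Open circles, 42 genes called in both lines without a called difference, lie near the dashed line.

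The largest differences among genes of at least 5 CPM in each line came from genes that rose about 2-fold or more in HepG2 with miR-17 TuD and did not pass the test in SK-Hep1. They include an enzyme of fatty acid entry into mitochondria, a transcription factor, a receptor of cell-to-cell signalling, a calcium channel and a keratin. CPT1A, the carnitine palmitoyltransferase that controls how long-chain fatty acids enter mitochondria, was at 20.2, 22.2 and 21.1 CPM in HepG2 with NC TuD, 59.7, 62.4 and 57.1 CPM in HepG2 with miR-17 TuD, 45.0 and 49.6 CPM in SK-Hep1 with NC TuD and 45.9 and 45.0 CPM in SK-Hep1 with miR-17 TuD. All HepG2 libraries with miR-17 TuD lay above the control libraries, while the SK-Hep1 arms overlapped. The response was 1.499 ± 0.07 in HepG2 and -0.06 ± 0.07 in SK-Hep1 (log2 ± SE), a difference of -1.56 ± 0.10 (edgeR adjusted p = 5.83e-18). With bulk RNA, a change in every cell and a change in the share of cells that express a gene cannot be told apart.

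KLF7, a Kruppel-like transcription factor gene, was at 4.16, 3.90 and 3.42 CPM in HepG2 with NC TuD, 10.5, 12.3 and 11.2 CPM in HepG2 with miR-17 TuD, 66.0 and 76.7 CPM in SK-Hep1 with NC TuD and 75.8 and 73.8 CPM in SK-Hep1 with miR-17 TuD. It rose in each HepG2 library with miR-17 TuD from a level far below that of SK-Hep1, and the SK-Hep1 arms overlapped. Its difference was -1.50 ± 0.15 (adjusted p = 2.01e-10). NOTCH1, which encodes a receptor for ligands on neighbouring cells, was at 4.38, 4.45 and 5.61 CPM in HepG2 with NC TuD, 12.3, 13.4 and 10.3 CPM in HepG2 with miR-17 TuD, 19.95 and 20.3 CPM in SK-Hep1 with NC TuD and 17.5 and 18.6 CPM in SK-Hep1 with miR-17 TuD. The groups did not overlap in either line, yet only the HepG2 rise passed (1.32 ± 0.13, against -0.16 ± 0.11 in SK-Hep1), and the difference was -1.48 ± 0.17 (adjusted p = 7.47e-09). CACNA1H, a subunit of T-type calcium channels, was at 27.6, 26.0 and 24.9 against 53.4, 57.7 and 51.0 CPM in HepG2, and 6.11 and 6.70 against 5.15 and 5.601 CPM in SK-Hep1, given here as NC TuD against miR-17 TuD. Its difference of -1.30 ± 0.18 (adjusted p = 7.22e-07) joined a HepG2 rise of 1.05 ± 0.07 with a value of -0.25 ± 0.16 in SK-Hep1 that did not pass.

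The other 6 of the 10 largest differences in this direction were alike: each HepG2 value rose, and no SK-Hep1 response passed. KRT80, an epithelial keratin gene, was at 4.09, 4.85 and 4.66 against 9.45, 10.6 and 8.57 CPM in HepG2, and 152 and 151 against 144 and 146 CPM in SK-Hep1. GPR56, an adhesion-type G protein-coupled receptor gene, was at 24.4, 24.2 and 27.2 against 53.4, 54.0 and 54.4 CPM in HepG2, and 104 and 107 against 109.5 and 105.1 CPM in SK-Hep1, with HepG2 arms far apart and SK-Hep1 arms overlapping. Their differences were -1.14 ± 0.14 and -1.07 ± 0.09 (adjusted p = 2.32e-08 and 3.98e-14). The cytokine gene IL18 differed by -1.03 ± 0.13, the haem transporter gene SLC48A1 by -1.06 ± 0.13, MEGF6 by -1.09 ± 0.13 and ABRACL by -1.09 ± 0.17 (adjusted p at most 1.74e-05). Each of these 10 calls held without any 1 library and under every other setting that kept the gene. The mean of at least 5 CPM was taken over both arms of a line. In HepG2, KLF7, NOTCH1, KRT80 and ABRACL reached it through the miR-17 TuD libraries (means 3.83, 4.81, 4.53 and 3.48 CPM with NC TuD), so that the rise itself placed these 4 among the 10. Of all 420 called differences of this level, 9 rested on such a rise in HepG2, all lower in SK-Hep1. Of the 10 genes, CPT1A and SLC48A1 held a 7mer-m8 in the 3′UTR and the other 8 held neither an 8mer nor a 7mer.

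**Figure D2:**
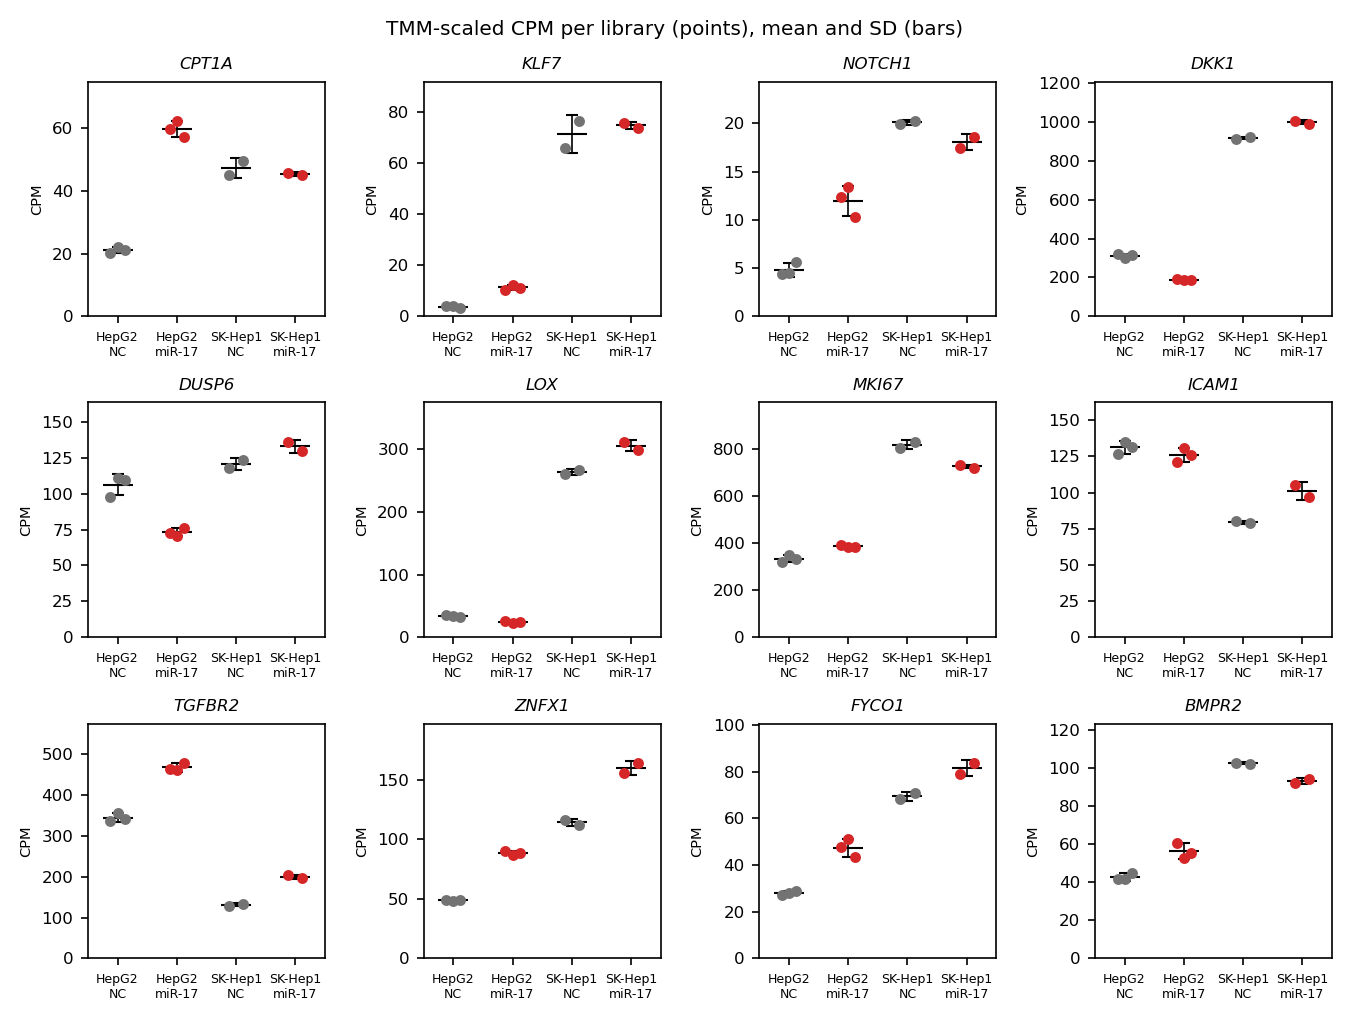
TMM-scaled CPM per library (y axis, starting at 0) for 12 genes in the 4 groups on the x axis. Grey points are NC TuD and red points miR-17 TuD libraries, and bars show the mean and SD (n = 3 in HepG2, 2 in SK-Hep1). CPT1A, KLF7 and NOTCH1 rise in HepG2, DKK1 and DUSP6 fall there, LOX and MKI67 move in opposite directions, ICAM1 rises in SK-Hep1, and TGFBR2 rises in both lines.

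In the other direction, the genes with the largest differences mostly fell in HepG2 with miR-17 TuD, and none passed as falling in SK-Hep1. They include a secreted Wnt inhibitor, a phosphatase of the MAP kinase pathway and a collagen crosslinking enzyme. DKK1, the Wnt inhibitor, was at 319, 300.2 and 315 CPM in HepG2 with NC TuD, 190.0, 186 and 185 CPM in HepG2 with miR-17 TuD, 912 and 922 CPM in SK-Hep1 with NC TuD and 1006 and 990.2 CPM in SK-Hep1 with miR-17 TuD. Every HepG2 library with miR-17 TuD lay below the controls and every SK-Hep1 one above them. The SK-Hep1 response of 0.12 ± 0.04 did not pass (adjusted p = 0.171), the HepG2 response was -0.74 ± 0.04, and the difference of 0.86 ± 0.05 had the smallest adjusted p of all genes (3.46e-18). DUSP6, which dephosphorylates ERK kinases and is induced by them, was at 97.8, 111 and 109.6 CPM in HepG2 with NC TuD, 72.6, 70.6 and 76.0 CPM in HepG2 with miR-17 TuD, 118 and 124 CPM in SK-Hep1 with NC TuD and 136 and 129.8 CPM in SK-Hep1 with miR-17 TuD. Arms did not overlap in either line, and the difference was 0.68 ± 0.08 (adjusted p = 4.93e-09).

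C10orf10 (DEPP), a stress-linked gene, was at 42.5, 40.2 and 47.1 against 31.4, 26.0 and 25.9 CPM in HepG2, and 17.8 and 19.0 against 20.1 and 21.1 CPM in SK-Hep1 for NC TuD against miR-17 TuD. ARRB1, which encodes the receptor adaptor beta-arrestin, was at 33.9, 32.0 and 38.8 against 24.99, 22.5 and 21.0 CPM in HepG2, and 7.66 and 6.90 against 8.06 and 8.40 CPM in SK-Hep1. Both fell in HepG2 and showed no called change in SK-Hep1, with differences of 0.80 ± 0.13 and 0.79 ± 0.17 (adjusted p = 2.05e-05 and 0.0021). STMN3, a stathmin family gene that acts on microtubules, fell by 0.77 in HepG2 on the log2 scale, was at -0.11 ± 0.06 in SK-Hep1 and differed by 0.66 ± 0.08 (adjusted p = 2.32e-08). The remaining 3, STK19 (0.64 ± 0.17), STXBP6 (0.64 ± 0.17) and NAGS (0.64 ± 0.18), are weaker. The call of STK19 was lost without any of 6 single libraries, all 4 of SK-Hep1 and HepG2 miR-17 TuD replicate 1 and NC TuD replicate 3 (difference 0.53 to 0.71 over the 10 fits that each left out 1 library; ranges given below in the same way have this meaning) and on the deposited log2 values. That of NAGS, the enzyme that makes the activator of the urea cycle, was lost without any of 6, SK-Hep1 NC TuD replicate 2, SK-Hep1 miR-17 TuD replicate 2 and HepG2 replicates 2 and 3 of either arm (0.53 to 0.76), and with limma-voom and on the deposited log2 values. STXBP6 lost its call without either SK-Hep1 NC TuD library or SK-Hep1 miR-17 TuD replicate 2 (0.47 to 0.79).

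Genes that passed in both lines with opposite signs numbered 11, of which 7 had at least 5 CPM in each line. SYNE2, a nuclear envelope protein gene that links the nucleus to the cytoskeleton, was at 54.1, 55.6 and 50.7 CPM in HepG2 with NC TuD, 77.1, 73.5 and 81.7 CPM in HepG2 with miR-17 TuD, 128 and 120.2 CPM in SK-Hep1 with NC TuD and 107 and 104 CPM in SK-Hep1 with miR-17 TuD. It rose in HepG2 (0.54 ± 0.05) and fell in SK-Hep1 (-0.24 ± 0.06), with no overlap of arms in either line, and differed by -0.77 ± 0.08 (adjusted p = 3.52e-10). LOX, the collagen crosslinking enzyme, was at 34.9, 33.3 and 33.1 CPM in HepG2 with NC TuD, 25.6, 22.3 and 24.9 CPM in HepG2 with miR-17 TuD, 260.2 and 267 CPM in SK-Hep1 with NC TuD and 312 and 299 CPM in SK-Hep1 with miR-17 TuD. It fell in HepG2 and rose in SK-Hep1 (0.21 ± 0.05, adjusted p = 0.00872), and the difference was 0.69 ± 0.08. MKI67, the gene of the proliferation marker Ki-67, was at 319, 349 and 331 CPM in HepG2 with NC TuD, 389.8, 385 and 384 CPM in HepG2 with miR-17 TuD, 803 and 830.4 CPM in SK-Hep1 with NC TuD and 731 and 720.3 CPM in SK-Hep1 with miR-17 TuD. Its arms were apart in both lines, up in HepG2 and down in SK-Hep1, for a difference of -0.38 ± 0.05 (adjusted p = 1.52e-06). CBX5, which encodes a heterochromatin protein, also rose in HepG2 (0.13 ± 0.05) and fell in SK-Hep1 (-0.19 ± 0.05).

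The other 3 fell in HepG2 and rose in SK-Hep1. SAT1, a polyamine catabolic enzyme gene, differed by 0.45 ± 0.07, IER3, an immediate early gene, by 0.38 ± 0.07, and TNFAIP3, which encodes the NF-kappaB inhibitor A20, by 0.39 ± 0.08 (adjusted p at most 0.00147). TNFAIP3 was at 76.5, 83.0 and 78.6 against 69.6, 74.7 and 71.0 CPM in HepG2, and 65.3 and 70.5 against 82.4 and 78.8 CPM in SK-Hep1, so its arms were apart in both lines by small amounts. The differences of all 7 genes held without each library in turn. The count of 11 did not: it was 7 without HepG2 NC TuD replicate 1 or HepG2 miR-17 TuD replicate 1, 5 and 1 without SK-Hep1 NC TuD replicate 1 or 2, and 3 and 4 without SK-Hep1 miR-17 TuD replicate 1 or 2, since it needs a pass in each line. The other 4 of the 11 were FGA, FGB, FGG and HGD, liver genes with 0 to 27 counts in each SK-Hep1 library.

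In a small set SK-Hep1 passed its own test and HepG2 did not: 12 genes of at least 5 CPM in each line, of which 8 rose in SK-Hep1 and 4 fell. The 8 with the smallest adjusted p were, in order, ICAM1, CPS1, CELSR2, ASPM, HMOX1, HERC2, PRNP and BRCA2. ICAM1, an adhesion receptor for leukocytes, was at 127, 135 and 132 CPM in HepG2 with NC TuD, 121, 131 and 126 CPM in HepG2 with miR-17 TuD, 80.2 and 78.7 CPM in SK-Hep1 with NC TuD and 105.3 and 96.8 CPM in SK-Hep1 with miR-17 TuD. It rose in both SK-Hep1 libraries with miR-17 TuD while the HepG2 arms overlapped, and the difference was 0.40 ± 0.07 (adjusted p = 2.34e-04). HMOX1, the haem-degrading enzyme, was at 89.7, 83.8 and 84.7 CPM in HepG2 with NC TuD, 89.5, 92.2 and 83.9 CPM in HepG2 with miR-17 TuD, 144 and 158 CPM in SK-Hep1 with NC TuD and 203 and 185 CPM in SK-Hep1 with miR-17 TuD, again with overlap in HepG2 only. Its difference of 0.32 ± 0.08 lost its call without SK-Hep1 NC TuD replicate 1 or SK-Hep1 miR-17 TuD replicate 1 (0.25 to 0.39), and on the deposited log2 values. CPS1, which makes carbamoyl phosphate for the urea cycle, was at 65.9, 68.7 and 67.3 CPM in HepG2 with NC TuD, 70.8, 67.3 and 74.8 CPM in HepG2 with miR-17 TuD, 6.60 and 4.66 CPM in SK-Hep1 with NC TuD and 10.4 and 9.45 CPM in SK-Hep1 with miR-17 TuD, low in SK-Hep1 throughout. The difference of 0.75 ± 0.16 lost its call without SK-Hep1 NC TuD replicate 2 (0.51 to 1.01). PRNP, the prion protein gene, differed by 0.21 ± 0.06, a call lost without SK-Hep1 NC TuD replicate 1 or SK-Hep1 miR-17 TuD replicate 1 (0.16 to 0.25).

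Those that fell in SK-Hep1 included CELSR2, a cadherin of planar cell polarity, at 59.3, 53.036 and 58.5 against 52.996, 53.6 and 54.9 CPM in HepG2, and 14.1 and 14.1 against 9.26 and 8.47 CPM in SK-Hep1, and genes of chromosome segregation and DNA repair. CELSR2 differed by -0.58 ± 0.14, a call lost without SK-Hep1 miR-17 TuD replicate 2 (-0.64 to -0.52). ASPM, a spindle pole gene, was at 104, 107 and 100.03 against 109, 98.3 and 115 CPM in HepG2, and 314 and 307 against 259 and 266 CPM in SK-Hep1, with overlap in HepG2 and none in SK-Hep1, and differed by -0.29 ± 0.07 (adjusted p = 0.00573), a call lost on the deposited log2 values. HERC2, a ubiquitin ligase gene of DNA repair with near-identical copies in the genome, differed by -0.30 ± 0.08, and BRCA2, of homologous recombination, by -0.43 ± 0.12. Both are weak calls. HERC2 lost its call without any SK-Hep1 library but NC TuD replicate 2, or without HepG2 NC TuD replicate 1 (-0.35 to -0.25). BRCA2 lost its call without any of 5 libraries, HepG2 miR-17 TuD replicate 3, HepG2 NC TuD replicate 1, either SK-Hep1 NC TuD or SK-Hep1 miR-17 TuD replicate 1 (-0.51 to -0.35), and on the deposited log2 values or with DESeq2.

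Against these stand 42 genes of at least 5 CPM in each line that passed in both lines in the same direction without a called difference, 40 that rose and 2, CDK6 and NUCKS1, that fell. For such genes the interval of the difference matters, since a p above the threshold does not show equal responses. TGFBR2, the type II TGF-beta receptor and a much studied miR-17 family target, was at 336, 357 and 341 CPM in HepG2 with NC TuD, 463, 461 and 479.8 CPM in HepG2 with miR-17 TuD, 129 and 134 CPM in SK-Hep1 with NC TuD and 204 and 196 CPM in SK-Hep1 with miR-17 TuD. All libraries with miR-17 TuD lay above the controls of their line. It rose by 0.44 ± 0.04 in HepG2 and 0.61 ± 0.05 in SK-Hep1 (log2 ± SE), and the 95% interval of the difference, 0.04 to 0.28, leaned to SK-Hep1 without passing (edgeR adjusted p = 0.132). MINK1, a kinase gene of JNK signalling, was at 102, 107 and 114 CPM in HepG2 with NC TuD, 140.2, 144 and 135 CPM in HepG2 with miR-17 TuD, 111 and 111 CPM in SK-Hep1 with NC TuD and 156 and 146 CPM in SK-Hep1 with miR-17 TuD. Its arms were apart in both lines at almost the same level of expression, and the interval was -0.08 to 0.22.

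The other 5 named genes of this kind each held an 8mer. BTG3, an antiproliferative gene, rose by 0.37 ± 0.07 in HepG2 and 0.38 ± 0.06 in SK-Hep1, and CENPQ, of the kinetochore, by 0.58 ± 0.08 and 0.53 ± 0.08. The intervals of their differences were -0.18 to 0.21 and -0.29 to 0.19. TMEM64 rose by 0.33 ± 0.06 and 0.38 ± 0.07 (interval -0.14 to 0.24). RGMB, a BMP co-receptor gene, and SEMA7A, a membrane-bound semaphorin gene, had larger values in HepG2, 0.63 ± 0.08 and 0.81 ± 0.06, than in SK-Hep1, 0.40 ± 0.05 and 0.54 ± 0.09. Their intervals, -0.41 to -0.05 and -0.47 to -0.06, lay below 0 before adjustment, and their adjusted p-values were 0.157 and 0.156.

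**Figure D3:**
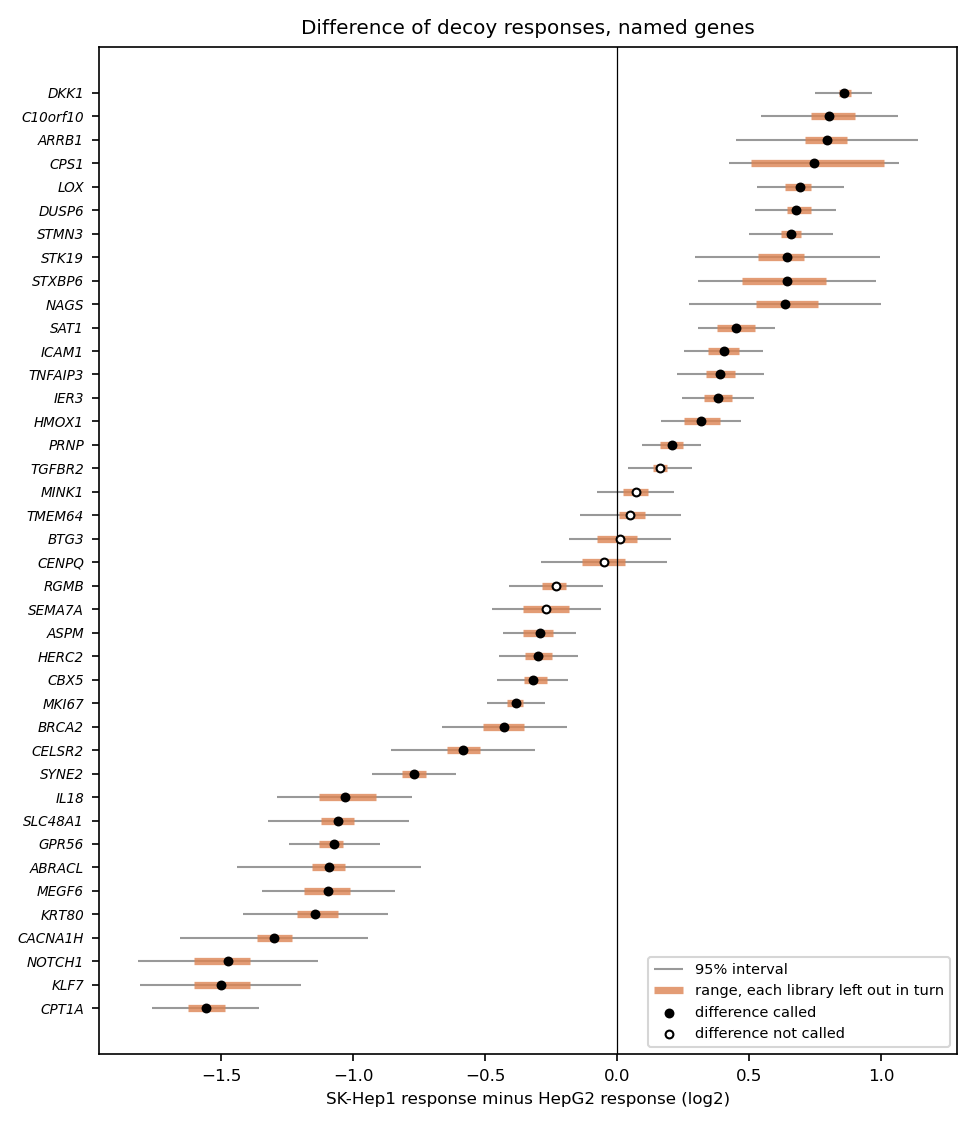
SK-Hep1 response minus HepG2 response (x axis, log2) for 40 named genes, with the 95% interval (grey line) and the range when each library was left out in turn (orange). Filled points, the called differences, run from CPT1A at -1.56 to DKK1 at 0.86, while open points, such as TGFBR2 at 0.16, were not called.

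A list of 68 genes described as miR-17 family targets, 66 of them tested, mostly rose or did not pass in either line. In HepG2 32 rose (against 10.7% of all genes), 1 fell and 33 did not pass (median 0.18 on the log2 scale, against 0.00 over all genes). In SK-Hep1 12 rose (against 0.667%), none fell and 54 did not pass (median 0.13, against -0.01). The difference passed for 4 of the 66 (6.06%), all lower in SK-Hep1 (against 2.51% of all genes): FYCO1, BMPR2, ZNFX1 and CDKN1A. The list's median difference was -0.07 and that of its 57 members of at least 5 CPM in each line -0.09, against -0.01 and 0.00 over the genes tested. The list was drawn up with results of these libraries known, so its direction is no independent evidence.

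ZNFX1, an antiviral helicase gene with 2 8mers, was at 48.7, 48.3 and 49.1 CPM in HepG2 with NC TuD, 89.9, 86.4 and 88.0 CPM in HepG2 with miR-17 TuD, 116 and 112 CPM in SK-Hep1 with NC TuD and 156 and 164 CPM in SK-Hep1 with miR-17 TuD. Every library with miR-17 TuD lay above its controls, and the rise was 0.85 ± 0.05 in HepG2 and 0.49 ± 0.05 in SK-Hep1, a difference of -0.37 ± 0.07 (adjusted p = 0.00101). It is 1 of 3 genes of at least 5 CPM in each line that moved the same way in both lines by amounts that differed. The other 2 are TBC1D9, which rose by 0.91 ± 0.06 and 0.52 ± 0.09, and PEG10, which fell, with values of -0.10 ± 0.03 and -0.31 ± 0.05. FYCO1, an adaptor that moves autophagosomes along microtubules, was at 27.1, 28.2 and 28.98 CPM in HepG2 with NC TuD, 47.7, 51.3 and 43.6 CPM in HepG2 with miR-17 TuD, 68.1 and 70.9 CPM in SK-Hep1 with NC TuD and 79.2 and 83.9 CPM in SK-Hep1 with miR-17 TuD. Its arms were apart in both lines, but the SK-Hep1 value of 0.23 ± 0.07 did not pass (adjusted p = 0.0865), and the difference was -0.53 ± 0.09 (adjusted p = 1.14e-04).

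BMPR2, the type II BMP receptor, whose 3′UTR held 4 7mer-m8 matches, was at 41.8, 41.5 and 45.1 CPM in HepG2 with NC TuD, 60.7, 52.5 and 55.5 CPM in HepG2 with miR-17 TuD, 103 and 102 CPM in SK-Hep1 with NC TuD and 91.9 and 94.2 CPM in SK-Hep1 with miR-17 TuD. It was higher in all HepG2 libraries with miR-17 TuD and not in those of SK-Hep1, and the difference was -0.53 ± 0.09 (adjusted p = 1.99e-05). CDKN1A, the cell cycle inhibitor p21, was at 161, 161 and 166 CPM in HepG2 with NC TuD, 216, 222 and 206 CPM in HepG2 with miR-17 TuD, 539.7 and 533 CPM in SK-Hep1 with NC TuD and 607 and 590.2 CPM in SK-Hep1 with miR-17 TuD. It rose by 0.40 ± 0.04 in HepG2, was at 0.16 ± 0.04 in SK-Hep1 (adjusted p = 0.0516) and differed by -0.24 ± 0.06, a call lost without SK-Hep1 miR-17 TuD replicate 2 (-0.27 to -0.22). Other well-known targets showed no called difference. E2F1, a transcription factor of S phase entry, differed by 0.07 ± 0.09 and the pro-apoptotic BCL2L11 by -0.17 ± 0.17, and neither passed in either line. PKD2, the polycystin gene with 2 8mers, rose by 0.36 ± 0.08 in HepG2 and 0.31 ± 0.08 in SK-Hep1 (interval of the difference -0.27 to 0.18). PKD1 rose in HepG2 alone (0.26 ± 0.06, against 0.04 ± 0.09 in SK-Hep1), with a difference of -0.22 ± 0.11 (adjusted p = 0.309) that passed without HepG2 NC TuD replicate 3, at -0.32.

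Seed matches were set against the responses over all 9124 searched genes of at least 5 CPM in each line, of which 26.4% held an 8mer or 7mer-m8. Of the 40 genes that rose in both lines without a called difference, 37 (92.5%) held one, and 30 (75%) held an 8mer, against 5.71% of all these genes. Among called differences the shares were closer to that of all genes. They were 36.1% (8mer 9.51%) for the 263 searched genes with a lower response in SK-Hep1, and 22.6% (8mer 4.52%) for the 155 with a higher one. In 234 of the 263 the HepG2 response was an increase that passed, and of these 35.0% held a match. Read the other way, the 521 8mer genes had a median response of 0.06 in HepG2 and 0.03 in SK-Hep1, and a median difference of -0.04. The 6115 genes with no match had medians of -0.02, -0.01 and 0.01. In HepG2 140 of the 8mer genes rose and 27 fell, and in SK-Hep1 36 rose and none fell. For the difference, 25 were lower and 7 higher.

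The 8mer genes had longer 3′UTRs than genes with no match (median 3205 and 985 nt). Within each of 5 classes of 3′UTR length, genes with an 8mer or 7mer-m8 had a higher median response than genes without, in HepG2 and in SK-Hep1. Their median difference was lower in each class. In the shortest class, up to 500 nt, the median differences were -0.03 for the 75 genes with a match and 0.02 for the 1729 without. This was the largest gap, and it was small in the longer classes that held most genes with a match. In the longest class the medians were -0.04 for the 804 genes with a match and -0.03 for the 422 without. In the next longest class they were -0.012 for the 882 with a match and -0.005 for the 1360 without.

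**Figure D4:**
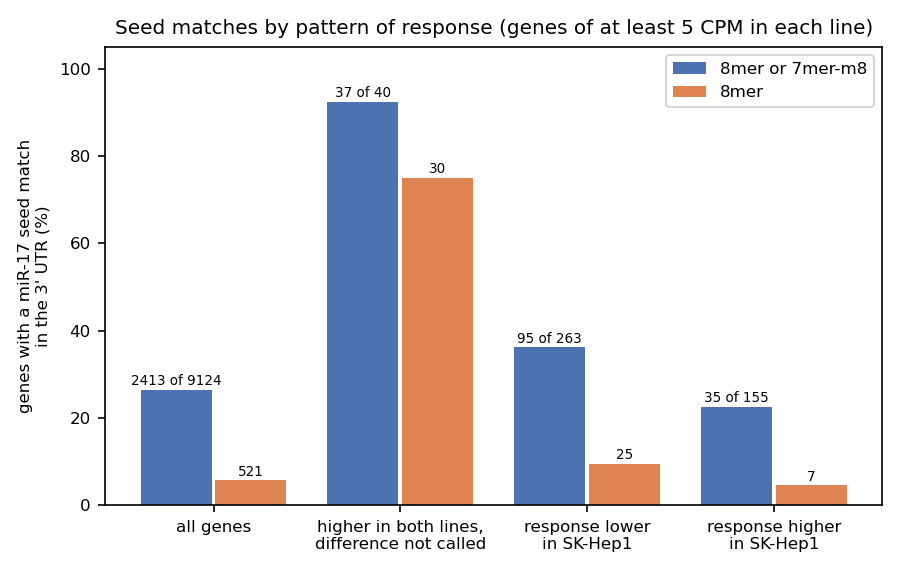
Share of genes (y axis, %) with a miR-17 family seed match in the longest 3′UTR, as 8mer or 7mer-m8 (blue) or 8mer (orange), for 4 sets of genes of at least 5 CPM in each line (x axis), with the number of genes above each bar. The set that rose in both lines stands at 92.5% and 75%, the genes with a lower or higher response in SK-Hep1 at 36.1% and 22.6% in blue, and all genes at 26.4%.

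Ribosomal protein genes of the large subunit and genes of ribosome production differed in 1 direction. No gene of the small subunit was in the list. In HepG2 40 of 43 large-subunit genes fell with miR-17 TuD (against 8.58% of all genes) and 3 did not pass (median -0.17). In SK-Hep1 none of the 43 passed by the edgeR test, and none had an unadjusted p below 0.05 (median 0.00). The difference was positive in all 43, and it passed for 16, all higher in SK-Hep1 (37.2%, against 1.24% of all genes), with a median of 0.17. RPL11, which encodes a large subunit protein that also binds MDM2, was at 609.6, 643 and 607 CPM in HepG2 with NC TuD, 524, 514 and 506 CPM in HepG2 with miR-17 TuD, 654 and 644 CPM in SK-Hep1 with NC TuD and 617 and 650.4 CPM in SK-Hep1 with miR-17 TuD. Its HepG2 arms were apart and its SK-Hep1 arms overlapped, and it differed by 0.23 ± 0.05 (adjusted p = 0.00401), a call lost without SK-Hep1 miR-17 TuD replicate 2 (0.19 to 0.27). RPL10 and RPL21 differed by 0.25 ± 0.05 and 0.28 ± 0.06. The count of 16 rested on single libraries and fell to 6 without HepG2 NC TuD replicate 1, to 10 without HepG2 miR-17 TuD replicate 1, to 8 and 4 without SK-Hep1 NC TuD replicate 1 or 2, and to 10 and 2 without SK-Hep1 miR-17 TuD replicate 1 or 2. The median stayed between 0.14 and 0.18 in all settings. Counts of ribosomal protein genes and NPM1 can share reads with near-identical pseudogenes and are uncertain to that extent.

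Among 30 MYC-bound genes of ribosome biogenesis, 16 fell in HepG2 (against 8.58% of all genes), none passed in SK-Hep1 by the edgeR test or had an unadjusted p below 0.05 there, and the difference passed for 3, all higher (10%, against 1.24% of all genes, median 0.13). NPM1, a nucleolar chaperone, differed by 0.21 ± 0.05, ODC1, the first enzyme of polyamine synthesis, by 0.22 ± 0.06, and GNL3, a nucleolar GTPase, by 0.23 ± 0.06. Each is a weak call. NPM1 lost it without SK-Hep1 NC TuD replicate 2 (0.18 to 0.25), ODC1 without HepG2 miR-17 TuD replicate 1 or SK-Hep1 NC TuD or miR-17 TuD replicate 1 (0.14 to 0.31) and on the deposited log2 values, and GNL3 without HepG2 NC TuD replicate 1 or any SK-Hep1 library but NC TuD replicate 2 (0.19 to 0.27). MYC itself fell by 0.14 in HepG2 on the log2 scale and was at -0.05 ± 0.05 in SK-Hep1, with a difference of 0.09 ± 0.07 that did not pass (adjusted p = 0.548).

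Genes of unfolded protein and amino acid stress, in 1 list, fell in HepG2 in 13 of 24 cases (against 8.58% of all genes). Another 2 rose there (against 10.7%), none passed in SK-Hep1 by the edgeR test (7 had an unadjusted p below 0.05), and 5 differed, all higher in SK-Hep1 (20.8%, against 1.24% of all genes, median of the list 0.10). HSPA5, the chaperone BiP, was at 2136, 2122 and 2042 CPM in HepG2 with NC TuD, 1783, 1724 and 1775 CPM in HepG2 with miR-17 TuD, 819.6 and 815 CPM in SK-Hep1 with NC TuD and 889 and 845 CPM in SK-Hep1 with miR-17 TuD. It fell in HepG2, the slightly higher SK-Hep1 value of 0.08 ± 0.04 did not pass, and the difference was 0.34 ± 0.05 (adjusted p = 3.92e-06). DNAJB9, a BiP co-chaperone, differed by 0.55 ± 0.14, a call lost without SK-Hep1 NC TuD replicate 1 or SK-Hep1 miR-17 TuD replicate 2 (0.42 to 0.68). PDIA6, a disulfide isomerase, differed by 0.18 ± 0.05, a call lost without any of 7 libraries, all but HepG2 miR-17 TuD replicate 3 and HepG2 NC TuD replicates 2 and 3 (0.16 to 0.20). XBP1 and HSP90B1 were the other 2 that passed, at 0.23 ± 0.07 and 0.18 ± 0.05.

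The immediate early and RAS-MAPK feedback list was alike in direction: of 24 genes tested, 8 fell and 4 rose in HepG2 (against 8.58% and 10.7% of all genes), 2 rose in SK-Hep1 (against 0.667%), and 5 differed, all higher in SK-Hep1 (20.8%, against 1.24%, median 0.15). Besides DUSP6 and IER3, the ERK pathway inhibitors SPRY4 (0.36 ± 0.09) and SPRY1 (0.98 ± 0.26) and the transcription factor ETV4 (0.26 ± 0.08) passed. SPRY4 was at 93.0, 95.8 and 97.3 against 75.2, 82.5 and 76.6 CPM in HepG2, and 46.2 and 49.9 against 51.7 and 49.2 CPM in SK-Hep1 for NC TuD against miR-17 TuD, and its call was lost without SK-Hep1 NC TuD or miR-17 TuD replicate 1 (0.30 to 0.41). Of 26 hypoxia response genes, 6 fell and 5 rose in HepG2 (against 8.58% and 10.7% of all genes), 1 rose in SK-Hep1 (against 0.667%), and 5 differed, all higher (19.2%, against 1.24%, median 0.09). LOX was 1 of them. P4HA1, which hydroxylates collagen, differed by 0.41 ± 0.09 (adjusted p = 0.00162), the mitophagy receptor BNIP3 by 0.34 ± 0.08, the glucose transporter SLC2A1 by 0.25 ± 0.06 and lactate dehydrogenase LDHA by 0.20 ± 0.05. The call of SLC2A1 was lost without SK-Hep1 NC TuD replicate 1 or SK-Hep1 miR-17 TuD replicate 2 (0.22 to 0.28).

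**Figure D5:**
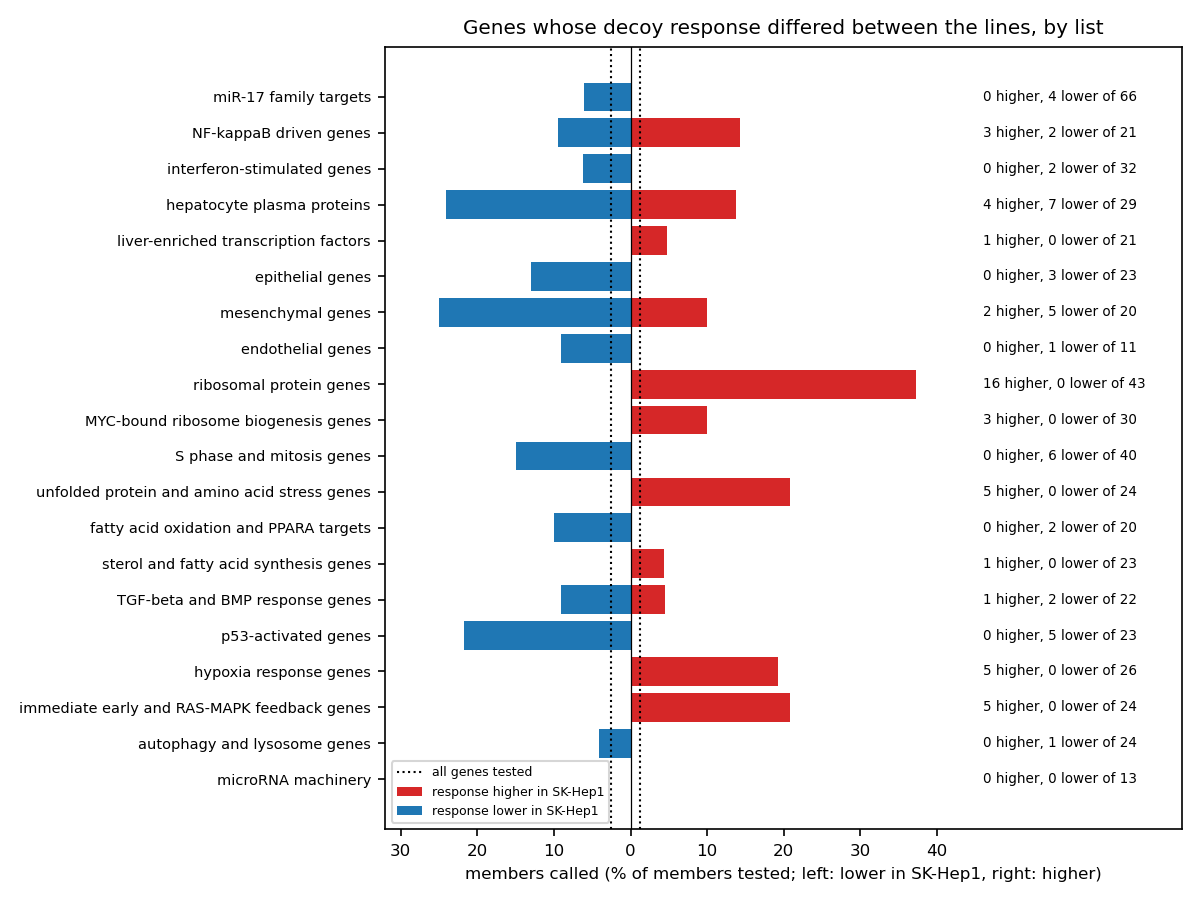
Share of the tested members of 20 gene lists (y axis) whose response was higher (red, to the right) or lower (blue, to the left) in SK-Hep1 than in HepG2 by the edgeR test (x axis, %), with the counts at the right and dotted lines at the 1.24% and 2.51% of all genes. Ribosomal protein genes (large subunit only) reach 37.2% to the right and have no bar to the left. NF-kappaB driven, hepatocyte, mesenchymal and TGF-beta response genes have bars on both sides.

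NF-kappaB driven genes moved in both directions. Of 21 tested, 5 rose and 2 fell in HepG2 (against 10.7% and 8.58% of all genes), while 8 rose and none fell in SK-Hep1 (against 0.667% and 0.202%), with medians of 0.00 and 0.25. The difference passed for 5 (23.8%, against 3.75% of all genes): ICAM1, TNFAIP3 and SOD2 were higher in SK-Hep1, and IL8 and BIRC3 lower. SOD2, the mitochondrial superoxide dismutase, was at 0.00 ± 0.04 in HepG2 and rose by 0.25 ± 0.05 in SK-Hep1, a difference of 0.25 ± 0.07 (adjusted p = 0.0266). IL8, the neutrophil chemokine CXCL8, rose in both lines, by 1.52 ± 0.20 in HepG2 at a mean of 2.77 CPM and by 0.67 ± 0.06 in SK-Hep1 at 143 CPM. Its difference of -0.86 ± 0.21 lost its call without HepG2 NC TuD replicate 1 (-0.93 to -0.80) and with limma-voom. BIRC3, an inhibitor of apoptosis, rose in HepG2 and was at 0.09 ± 0.05 in SK-Hep1, a difference of -0.57 ± 0.15. Only 10 of the 21 genes had at least 5 CPM in each line, and their median difference was 0.06.

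Of 32 interferon-stimulated genes, 10 rose in HepG2 and none fell (against 10.7% and 8.58% of all genes), and in SK-Hep1 3 rose and none fell (against 0.667% and 0.202%). The difference passed for 2 (6.25%, against 2.51% of all genes), HERC5 and SLFN5, both lower in SK-Hep1. HERC5, the ISG15 ligase, was at 0.146, 0.398 and 0.437 CPM in HepG2 with NC TuD, 1.61, 2.68 and 2.81 CPM in HepG2 with miR-17 TuD, 21.1 and 20.8 CPM in SK-Hep1 with NC TuD and 21.7 and 22.5 CPM in SK-Hep1 with miR-17 TuD. It came from near 0 in HepG2 and was far higher in both arms of SK-Hep1, which lay close together, and the difference was -2.75 ± 0.37 (adjusted p = 6.13e-07). SLFN5 was at 0.802, 0.239 and 0.874 CPM in HepG2 with NC TuD, 4.41, 3.41 and 3.18 CPM in HepG2 with miR-17 TuD, 62.7 and 58.5 CPM in SK-Hep1 with NC TuD and 72.2 and 73.3 CPM in SK-Hep1 with miR-17 TuD. The HepG2 arms were apart from a low level, the SK-Hep1 value of 0.26 ± 0.07 did not pass, and the difference of -2.22 ± 0.28 lost its call on the deposited log2 values. The list's median difference was -0.04, or 0.05 over its 12 members of at least 5 CPM in each line, so the sign of the median differs with the genes counted.

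Epithelial genes rose in HepG2, 15 of 23 (against 10.7% of all genes), with none lower, whereas 1 rose in SK-Hep1 (against 0.667%). The difference passed for 3, all lower (13%, against 2.51%, median -0.28, and -0.24 over the 10 members of at least 5 CPM in each line). JUP, the junction protein plakoglobin, was at 73.7, 67.1 and 73.8 CPM in HepG2 with NC TuD, 99.97, 104 and 91.2 CPM in HepG2 with miR-17 TuD, 16.5 and 16.2 CPM in SK-Hep1 with NC TuD and 15.3 and 14.2 CPM in SK-Hep1 with miR-17 TuD. Its arms were apart upwards in HepG2 and slightly downwards in SK-Hep1, where the response did not pass, for a difference of -0.61 ± 0.12 (adjusted p = 7.38e-04). The keratin genes KRT8 and KRT18, which have many processed pseudogenes, differed by -0.25 ± 0.05 and -0.23 ± 0.05 (adjusted p = 8.40e-04 and 0.00287). Mesenchymal genes did not move as a block: of 20, 5 rose and 2 fell in HepG2 (against 10.7% and 8.58% of all genes) and 1 rose in SK-Hep1 (against 0.667%). The difference was higher in SK-Hep1 for LOX and COL6A1 (against 1.24% of all genes) and lower for SNAI2, COL1A1, TAGLN, ACTA2 and CDH2 (against 2.51%). CDH2, the adhesion protein N-cadherin, was at 94.7, 99.6 and 101 against 118, 118 and 124 CPM in HepG2, and 84.3 and 84.4 against 80.8 and 79.0 CPM in SK-Hep1 for NC TuD against miR-17 TuD and differed by -0.36 ± 0.08 (adjusted p = 0.00108). COL1A1, a chain of type I collagen, differed by -0.69 ± 0.14 (adjusted p = 9.63e-04).

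TGF-beta and BMP response genes rose in HepG2 in 11 of 22 cases and fell in 2 (against 10.7% and 8.58% of all genes), and 1 rose in SK-Hep1 (against 0.667%). The difference was lower for COL1A1 and TGM2 and higher for CTGF (13.6% in all, against 3.75% of all genes, median -0.13). TGM2, tissue transglutaminase, rose by 0.27 ± 0.04 in HepG2 and was at -0.01 ± 0.04 in SK-Hep1, where it is abundant (mean 3166 against 108 CPM), a difference of -0.28 ± 0.06. CTGF, a matricellular protein, was at 403, 416 and 416 CPM in HepG2 with NC TuD, 342, 361 and 357 CPM in HepG2 with miR-17 TuD, 161 and 176 CPM in SK-Hep1 with NC TuD and 190.4 and 177 CPM in SK-Hep1 with miR-17 TuD. It fell in HepG2, its SK-Hep1 value of 0.12 ± 0.05 did not pass, and the difference was 0.35 ± 0.06 (adjusted p = 1.61e-04). p53-activated genes rose in HepG2 in 9 of 23 cases (against 10.7% of all genes), with 1 lower (against 8.58%), and 1 rose in SK-Hep1 (against 0.667%). For 5 the difference passed, all lower (21.7%, against 2.51%, median -0.10): CDKN1A, the death receptor FAS (-0.42 ± 0.11), the mitochondrial FDXR (-0.35 ± 0.08), the DNA damage sensor DDB2 (-0.35 ± 0.09) and MDM2, which degrades p53 (-0.23 ± 0.06). FDXR lost its call without SK-Hep1 NC TuD replicate 1 (-0.42 to -0.27), and DDB2 without HepG2 miR-17 TuD replicate 1 or SK-Hep1 NC TuD replicate 2 (-0.40 to -0.29). Both also lost it on the deposited log2 values.

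Of 40 genes of S phase and mitosis, 5 passed as lower in SK-Hep1 with miR-17 TuD (against 0.202% of all genes), none passed as higher, and 39 had a negative value there (median -0.11). In HepG2 4 rose and 5 fell (median -0.02), near the 10.7% and 8.58% of all genes. The difference passed for 6, all lower: MKI67, BRCA2, FOXM1, CCNE2, BRCA1 and PLK1 (15%, against 2.51% of all genes, median of the list -0.10). FOXM1, a transcription factor of the G2 phase, was at 117, 109.7 and 120.5 against 134, 136 and 125 CPM in HepG2, and 277 and 302 against 281 and 268 CPM in SK-Hep1 for NC TuD against miR-17 TuD and differed by -0.26 ± 0.07. CCNE2, a cyclin of S phase entry, differed by -0.52 ± 0.14. The call of FOXM1 was lost without HepG2 miR-17 TuD replicate 1, SK-Hep1 NC TuD replicate 2 or SK-Hep1 miR-17 TuD replicate 2 (-0.32 to -0.20) and on the deposited log2 values, and that of CCNE2 without HepG2 NC TuD replicate 1 or those same SK-Hep1 libraries (-0.63 to -0.40), with DESeq2 and on the deposited log2 values. BRCA1 (-0.25 ± 0.08) and PLK1 (-0.22 ± 0.07) passed for the difference while neither line passed alone.

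In lists of metabolism and microRNA processing 0 to 2 genes each differed. Of 20 fatty acid oxidation genes, CPT1A and CROT, of peroxisomal fatty acid export, were lower in SK-Hep1 (10%, against 2.51% of all genes). CROT (-0.46 ± 0.13) lost its call without any of 6 libraries, HepG2 miR-17 TuD replicate 1, HepG2 NC TuD replicates 1 and 3, either SK-Hep1 NC TuD or SK-Hep1 miR-17 TuD replicate 1 (-0.53 to -0.39), and with DESeq2 and on the deposited log2 values. Of 23 sterol and fatty acid synthesis genes, the elongase ELOVL6 was higher (0.39 ± 0.09), a call lost without SK-Hep1 NC TuD replicate 1 or SK-Hep1 miR-17 TuD replicate 2 (0.35 to 0.44). FYCO1 was the sole called gene of 24 in the autophagy and lysosome list. The shares of the sterol and autophagy lists (4.35% and 4.17%) are close to the 3.75% of all genes. None of 13 microRNA machinery genes differed by the edgeR test, with 3 at an unadjusted p below 0.05, none with DESeq2 or limma, and 1 without HepG2 NC TuD replicate 2. A list of 13 is too short to set a count of 0 apart from the 3.75% of all genes.

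Liver plasma protein genes gave large fitted differences from few counts. Of 29 tested, 4 were higher and 7 lower (against 1.24% and 2.51% of all genes), while only 4 of the 29 had at least 5 CPM in each line. In SK-Hep1 23 and 26 of the 30 listed genes had a count with NC TuD and 17 and 19 with miR-17 TuD, and the summed level was 112 and 137 against 119 and 108 CPM. ALB, serum albumin, had 59 and 113 counts with NC TuD and 0 and 4 with miR-17 TuD. AFP, alpha-fetoprotein, had 62 and 76 counts with NC TuD and 11 and 7 with miR-17 TuD. APOA1, the apolipoprotein of high-density lipoprotein, had 8 and 19 counts with NC TuD and 0 and 0 with miR-17 TuD. All 3 were lower in the miR-17 TuD libraries, and in HepG2 both ALB and AFP fell as well (-0.51 ± 0.04 and -0.54 ± 0.03). The fibrinogen chains went the other way. FGA had 1 and 7 counts with NC TuD and 27 and 21 with miR-17 TuD, FGB had 2 and 2 counts with NC TuD and 9 and 12 with miR-17 TuD, and FGG had 2 and 3 counts with NC TuD and 11 and 13 with miR-17 TuD, while in HepG2 all 3 fell (-0.42, -0.65 and -0.48). The fitted log2 values of ALB (-4.74 ± 0.51) and FGA (3.06 ± 0.43) depend on the prior count and are no measure of size, and both lost their call on the deposited log2 values. The counts of ALB, AFP, APOA1 and LYZ were each higher in SK-Hep1 NC TuD replicate 2 than in replicate 1, and the part of reads from other cells or libraries in them was not tested.

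In each of 3 other cell type lists 1 gene differed, which at their length sets the share (9.09%, 25% and 4.76%, against 3.75% of all genes). Of 11 tested endothelial genes ENG, a TGF-beta co-receptor, passed at -0.62 ± 0.18, a call lost without any of 5 libraries, HepG2 miR-17 TuD replicate 1, HepG2 NC TuD replicates 1 and 2, SK-Hep1 NC TuD replicate 2 and SK-Hep1 miR-17 TuD replicate 2 (-0.75 to -0.50), and with limma-voom, DESeq2 and on the deposited log2 values. Of 4 tested blood cell genes LYZ, lysozyme, passed, with 13 and 35 counts with NC TuD and 1 and 0 with miR-17 TuD in SK-Hep1, while the 12 listed blood cell genes summed to 152 CPM in each NC TuD library and 166 and 167 CPM with miR-17 TuD there. Of 21 liver-enriched transcription factor genes CEBPB passed at 0.44 ± 0.12, a call lost without any of 4 libraries, HepG2 NC TuD replicates 1 and 3, SK-Hep1 NC TuD replicate 1 and SK-Hep1 miR-17 TuD replicate 1 (0.35 to 0.53), and with limma-voom and on the deposited log2 values.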

How the data were processed

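Poly(A) RNA from 10 libraries was read as 50 bp pairs from an unstranded kit (150 ng of RNA each, per the labels). The authors deposited 1 table of whole-number read counts by gene per library, and 1 log2 matrix that the series text ascribes to limma voom. Sources differ on the steps before counting: the submitters' processing notes list FastQC, STAR, SAMtools, HTSeq 0.5.4p5, limma and hg19, whereas the series text names Bowtie, TopHat, a mouse genome and RSEM. Rows that name no gene were left out (no feature 11.6 to 14.1% of the sum over all rows, ambiguous 0.584 to 0.619%, not unique 4.47 to 5.04%, not aligned 2.43 to 2.87%). The deposited log2 values equal log2 of the count plus 0.5 minus a constant per library, to within 5e-14, so they are on the scale of the same counts.

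In R 4.3.3 with edgeR 4.0.16, genes passing filterByExpr were scaled by TMM. One robust quasi-likelihood fit with a mean per group held all 10 libraries, and 3 contrasts were tested: the response of HepG2, that of SK-Hep1, and SK-Hep1 minus HepG2. Calls have a Benjamini-Hochberg adjusted p below 0.05 over all 13349 genes, and the SE is the size of the log2 value over the square root of F. Every adjusted p in the text comes from this fit. CPM and means use the counts scaled by TMM. The precision follows from 12884225 to 15076431 counts per library. Alternatives were other scalings and filters, limma 3.58.1 (voom, or on the deposited matrix), DESeq2 1.42.0, a replicate block, and each library left out. Simulated counts for 13349 genes held changes in HepG2 miR-17 TuD, placed only in genes of at least 5 CPM in each line. The difference recovered 52%, 90%, 100% and 100% of 50 genes each changed 1.25, 1.5, 2 and 3-fold, with 8 false among 179 calls. Recovery of genes at lower levels, or of changes in SK-Hep1, was not assessed. Counts of replicates within a group differed beyond sampling noise, so none was counted as a duplicate. Chi-square per degree of freedom was 1.74 to 3.70 in HepG2 and 1.40 to 1.83 in SK-Hep1, a difference that the shared estimate of the spread does not take up.

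Genes named are the 10 largest differences in each direction among calls of at least 5 CPM in each line, then up to 8 each of opposite, shared and SK-Hep1 responses, up to 3 per list by adjusted p, and a fixed set of known targets and markers. Other genes were named after their values were seen, and some genes of the rule are not reported here. The comparison, the lists and the rule were chosen with earlier results of these data known. Of the tested genes, 12732 matched a 3′UTR by symbol, 505 by an older symbol and 3 by another name, and 109 were not searched.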

Additional observations from a re-analysis of the deposited data

Results flagged for a closer look

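The test of the difference itself separated the lines for 500 genes, and each gene that the naming rule chose among them is given here with the log2 response of SK-Hep1 minus that of HepG2. Groups of 2 and 3 libraries are too small to test for single libraries that stand apart. Among genes of at least 5 CPM in each line, the response was higher in SK-Hep1 for DKK1 (0.86), C10orf10 (0.80), ARRB1 (0.79), CPS1 (0.75), LOX (0.69), DUSP6 (0.68), STMN3 (0.66), STK19 (0.64), STXBP6 (0.64), NAGS (0.64), SAT1 (0.45), IER3 (0.38), TNFAIP3 (0.39), ICAM1 (0.40), HMOX1 (0.32), PRNP (0.21), CEBPB (0.44), RPL10 (0.25), RPL21 (0.28), RPL11 (0.23), NPM1 (0.21), ODC1 (0.22), GNL3 (0.23), HSPA5 (0.34), DNAJB9 (0.55), PDIA6 (0.18), ELOVL6 (0.39), CTGF (0.35), P4HA1 (0.41), SLC2A1 (0.25) and SPRY4 (0.36). It was lower in SK-Hep1 for CPT1A (-1.56), KLF7 (-1.50), NOTCH1 (-1.48), CACNA1H (-1.30), KRT80 (-1.14), MEGF6 (-1.09), ABRACL (-1.09), GPR56 (-1.07), SLC48A1 (-1.06), IL18 (-1.03), SYNE2 (-0.77), MKI67 (-0.38), CBX5 (-0.32), CELSR2 (-0.58), ASPM (-0.29), HERC2 (-0.30), BRCA2 (-0.43), BMPR2 (-0.53), FYCO1 (-0.53), ZNFX1 (-0.37), JUP (-0.61), KRT8 (-0.25), KRT18 (-0.23), COL1A1 (-0.69), CDH2 (-0.36), FOXM1 (-0.26), CCNE2 (-0.52), CROT (-0.46), TGM2 (-0.28), CDKN1A (-0.24), FDXR (-0.35) and DDB2 (-0.35). Genes under 5 CPM in 1 line, whose fitted values rest on few counts there, were IL8 (-0.86), SLFN5 (-2.22), HERC5 (-2.75), AFP (-2.30), FGA (3.06), ALB (-4.74), ENG (-0.62) and LYZ (-5.002). No explanation of these differences was tested.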

How the results depend on the processing

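The number of genes whose response differed was 500 (165 higher and 335 lower in SK-Hep1), with 11 opposite, 2571 called in HepG2 and 116 in SK-Hep1. With DESeq2 347 genes differed, 206 of them lower, and 6 were opposite. On the deposited log2 values 376 differed, 279 of them shared with the 500, and 3 were opposite. With the filter at 5 CPM in each line, opposite calls were 5 and SK-Hep1 calls 68. Leaving out 1474 genes over 100-fold apart between the lines, a choice made after seeing the data, gave 475 differences and 7 opposite genes. When 1 library, or 1 of each HepG2 arm (the latter also chosen after seeing the data), was left out, differences ran from 212 to 758, higher ones from 56 to 297, lower ones from 156 to 461, opposite ones from 1 to 16, HepG2 calls from 1278 to 2834 and SK-Hep1 calls from 49 to 241. The share of higher differences was 33% as reported and 37.0% and 36.8% with DESeq2 size factors or upper-quartile scaling. Libraries of equal replicate number had deviations that correlated at 0.06, -0.34 and -0.31 in HepG2 and -0.05 in SK-Hep1, over 9156 genes. In HepG2, pairs of unequal number ran from -0.12 to 0.38. The highest values joined decoy library 3 to control library 2 (0.38) and decoy library 2 to control library 3 (0.30). In SK-Hep1, 2 libraries per arm force every pair to 0.05 or -0.05, so these values decide nothing. Whether libraries were paired in another order was not tested. With a replicate block, 227 genes differed (55 higher, 172 lower), 1 was opposite, and SK-Hep1 had 58 calls. Of 71 named genes called in the difference, 44 kept the call without each library in turn, 46 under the other settings and 40 under both. The call was lost for 16 on the deposited log2 values, for 19 with the block and for 4 with DESeq2, and no value reversed. Losses with the block are not given gene by gene above. They were STK19, NAGS, ASPM, HMOX1, HERC2, PRNP, BRCA2, CEBPB, ENG and RPL11. Also lost with the block were NPM1, ODC1, GNL3, FOXM1, CCNE2, PDIA6, CROT, CDKN1A and SLC2A1. Of 15 named genes not called, 3 passed under some setting. The cause of these changes was not tested. SK-Hep1 rests on 2 libraries per arm, and genes with under 5 CPM in a line on few counts.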
